A study of Mus musculus with 7 samples.

Results

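In the library of ovaries taken at postnatal day 5 (P5), 230 cells formed a Gng13-positive group. Cells were selected on their own transcript counts, as unique molecular identifiers (UMIs, 1 for each captured RNA molecule). A cell needed at least 1000 detected genes, at least 2 UMIs of Gng13 and at least 2 of Wnt6 and Kitl together. It could hold no UMI of Amh, Nr5a2, Hsd17b1 or Pax8, at most 1 of Upk3b and at most 3 of Dazl and Ddx4 together. The 230 cells were 4.38% (95% exact binomial interval 3.84 to 4.97%) of the 5251 somatic cells with at least 1000 genes, out of 6519 called cells at P5 and 52542 called cells in all 7 libraries. The study followed the mouse gonad from E11.5 (E for embryonic day) to P5 with 1 droplet library per age, each from several gonads of wild-type, untreated C57BL/6J mice. The tissue stayed in trypsin for 80 min at P1 and P5, and for 60 min at E18.5, 40 min at the middle fetal ages (E16.5, E14.5) and 20 min before that. With 1 library per age there is no replicate, so no difference between cell classes or ages was tested, and every interval covers the counting error of UMIs but not the spread between animals.

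Granulosa cells surround the oocyte, nourish it and make its steroid hormones once the follicle grows. In the mouse, follicles of the ovarian medulla start to grow soon after birth, while cells of the cortex assemble the resting primordial follicles that serve the adult. Foxl2 is the transcription factor that keeps granulosa cells in their female fate, Lgr5 is the receptor for R-spondins that strengthens Wnt signalling, Aldh1a2 makes retinoic acid, and Gng13 is a gamma subunit of heterotrimeric G proteins. The surface epithelium covers the ovary and is known to hold Lgr5-positive cells.

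Position in the ovary was not measured, since the cells were dissociated, so the word cortical could not be checked. The granulosa name held at most for part of the cells, and detection of Foxl2, Aldh1a2 or Lgr5 does not mark granulosa cells alone. Stroma also carried Foxl2, and surface epithelium had more Aldh1a2 and Lgr5 than the Gng13-positive cells, at levels given below. Foxl2 was detected in 165 of the 230 (71.7%, 65.4 to 77.5%), Aldh1a2 in 188 (81.7%) and Lgr5 in 104 (45.2%). In immune cells of the same library, which should lack them, the shares were 7.09, 1.42 and 0% of 141 cells, the last of which allows a share of up to 2.58%. Median depth was 8027.5 UMIs per Gng13-positive cell and 7596 per immune cell. After every cell was thinned to 2000 UMIs, Foxl2, Aldh1a2 and Lgr5 were left in 32.6, 42.2 and 17.0% of Gng13-positive cells. Krt19, a keratin of the surface epithelium, was detected in 68 (29.6%, against 7.80% of immune cells and 17.4% after thinning), and 35 cells held Krt19 with no Foxl2. They are therefore called Gng13-positive cells here, and not granulosa cells as a whole.

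The selection itself fixed several values, which are given only as a description. Gng13 ranged from 2 to 40 UMIs per cell with a median of 5, Wnt6 from 0 to 13 with a median of 3 and Kitl from 0 to 19 with a median of 2. Removing 1 condition at a time showed which mattered most. Of the cells that met every other condition, 848 failed on Gng13, 152 on Upk3b, 39 on the 3 Amh-group genes, 31 on Wnt6 and Kitl, 3 on the gene minimum and 2 each on Pax8 and on the germ cell genes. Just inside the Gng13 threshold, the 66 cells with exactly 2 UMIs held 333 CPM (UMIs of a gene per 1000000 UMIs of the class) of Foxl2 and 36.2 CPM of Lgr5. Just outside, the 155 cells with 1 UMI held 414 CPM of Foxl2 and 11.1 CPM of Lgr5. At the Upk3b threshold, the 24 cells with 1 UMI held 722 CPM of Krt19 and 136 CPM of Foxl2, and the 12 cells left out with 2 UMIs held 937 and 47.8 CPM. Thus the Foxl2 level was lower and the Krt19 level higher on both sides of the Upk3b threshold than among the cells at the Gng13 threshold.

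Levels were set against 4 groups of somatic cells of the same library, each drawn by fixed UMI conditions. Growing follicle granulosa (445 cells) met the same conditions on detected genes, Wnt6 and Kitl, Upk3b, Pax8, and Dazl and Ddx4. These cells held at least 3 UMIs of Amh, Nr5a2 and Hsd17b1, genes of follicles that have begun to grow, and at most 1 of Gng13. Gng13-free supporting cells (693 cells) met every condition of the Gng13-positive cells but held no Gng13. The word supporting stands for these conditions only. At least 1 Wnt6 UMI was held by 492 of the 693, and by 225 of the 230 Gng13-positive cells. The surface epithelium group (174 cells) held at least 3 UMIs of Upk3b, a uroplakin of mesothelial cells. The fourth group was all 5021 other somatic cells. Mitochondrial transcripts made up 8.54% of the UMIs of Gng13-positive cells, 5.67% in growing follicle granulosa, 6.21% in Gng13-free cells and 6.21% in surface epithelium, and median UMIs per cell were 8027.5, 10365, 7346 and 17228. The part of these differences in the results was not tested, and values for cells of at most 10% mitochondrial UMIs are given in the closing section. Of the 230 barcodes, 3 also occurred in another library of the series, where 995 shared barcodes were counted over all pairs of libraries.

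Lgr5 (chr10:115450311-115587780, GRCm38) was low in Gng13-free cells and in growing follicle granulosa. Its level was 105 (91.5 to 120.1) CPM in Gng13-positive cells, 4.39 (2.81 to 6.53) in Gng13-free cells and 0.797 (0.217 to 2.04) in growing follicle granulosa. The ratio was 24.0 (15.7 to 38.2) to Gng13-free cells and 132 (50.8 to 488) to growing follicle granulosa, the latter on 4 UMIs. The growing group was held to at most 1 Gng13 UMI per cell, and the 19 cells with more than 1 UMI of Amh, Nr5a2 and Hsd17b1 that met the other conditions for Gng13-positive cells, which it left out, held 42.7 CPM of Lgr5. In 2 random draws of 2000 UMIs per cell, the first of which left growing follicle granulosa without an Lgr5 UMI, the lower 95% bounds of the latter were 26.3 and 14.3, and with 20 CPM added the 2 ratios were 5.13 and 6.01. Surface epithelium had more than the Gng13-positive cells, 257 (239.6 to 275) CPM, at a ratio of 0.409 (0.350 to 0.476). The order was therefore surface epithelium, Gng13-positive cells, Gng13-free cells, growing follicle granulosa.

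Aldh1a2 (chr9:71215789-71296243) followed the same order over a narrower span. It stood at 429 (407 to 452) CPM in surface epithelium, 288 (265 to 313) in Gng13-positive cells, 93.6 (85.6 to 102) in Gng13-free cells and 20.5 (16.7 to 24.9) in growing follicle granulosa. The ratio of Gng13-positive cells to Gng13-free cells was 3.08 (2.73 to 3.48), to growing follicle granulosa 14.1 (11.4 to 17.5) and to surface epithelium 0.672 (0.609 to 0.740). Both genes were thus higher in surface epithelium than in the Gng13-positive cells, by over 2-fold for Lgr5 and less for Aldh1a2. Against cells with at least 1 UMI of the Amh-group genes in place of 3, the ratio for Aldh1a2 was 7.90.

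Foxl2 (chr9:98955288-98958543) ran the other way. Growing follicle granulosa held 361 (344 to 378) CPM and Gng13-free cells 344 (328 to 359.6), intervals that overlap, and Gng13-positive cells held 246 (225 to 269). Surface epithelium held 22.9 (18.0 to 28.7). Gng13-positive cells were at 0.682 (0.617 to 0.754) times the level of growing follicle granulosa and 10.8 (8.41 to 13.9) times that of surface epithelium. The first ratio depended on the cells taken. It was 0.860 with at least 1 Gng13 UMI and 0.593 with at least 3. Without cells holding Krt19 or Upk3b, a choice made after the values were seen, it was 0.805. Cells of the stroma group, defined by Nr2f2 and type I collagen, also carried Foxl2 UMIs at 169 (161 to 177) CPM. Over all other somatic cells, a group that includes Gng13-free cells and growing follicle granulosa, the level was 239 (234 to 244). The stroma level was below that of Gng13-positive cells, Gng13-free cells and growing follicle granulosa but above that of surface epithelium. Gng13 (chr17:25717171-25719406), which the selection used, was at 779 CPM in Gng13-positive cells, 954 in surface epithelium, 11.8 in stroma and 7.94 in immune cells. All 4 genes overlap a gene on the opposite strand (Chtf18, A930009A15Rik, Gm48124 and Foxl2os), and the sources used here do not state how such reads were assigned.

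**Figure D1:**
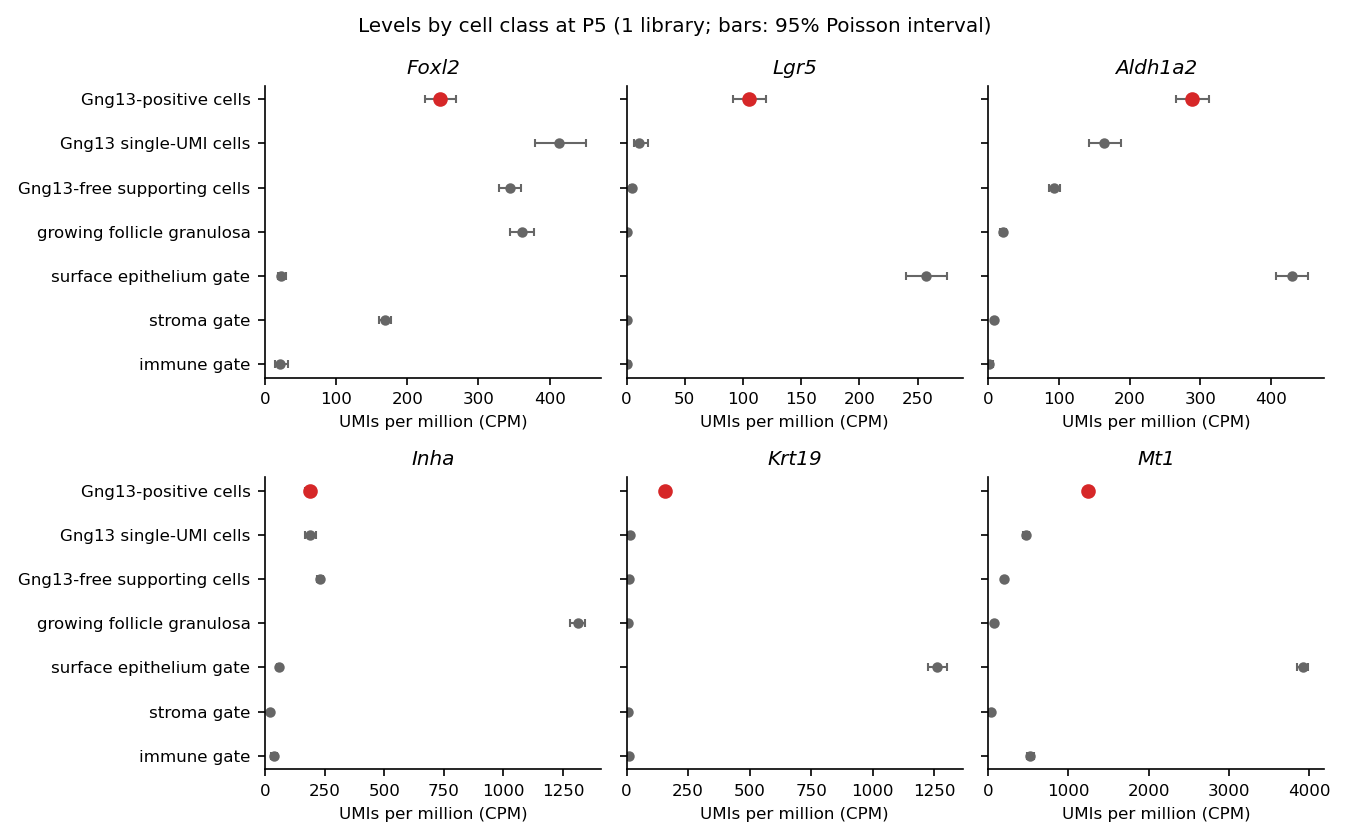
Level in CPM (x axis, linear) of 6 genes in 7 cell classes of the P5 library, as points with 95% Poisson intervals for counting error, with Gng13-positive cells in red. Lgr5, Aldh1a2, Krt19 and Mt1 have their highest value in the surface epithelium group and their second highest in Gng13-positive cells, while Foxl2 is highest in Gng13 single-UMI cells and Inha in growing follicle granulosa.

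The Gng13-positive cells were not uniform. Split by their Gng13 UMIs, the 66 cells with 2, the 45 with 3 to 4, the 46 with 5 to 7, the 53 with 8 to 15 and the 20 with at least 16 differed in the other genes while their median depth stayed between 7810.5 and 8681.5 UMIs. Foxl2 was 333, 341, 191, 191 and 62.6 CPM over these 5 groups. Lgr5 was 36.2, 61.3, 129.5, 166 and 188 CPM. Krt19 was 63.4, 80.9, 193, 206 and 366 CPM. The cells with the most Gng13 thus carried the least Foxl2 and the most Lgr5 and Krt19. Serpine2, a protease inhibitor of granulosa cells, was 292 (248 to 340.5) CPM at 2 UMIs of Gng13 and 38.5 (16.6 to 75.9) at 16 or more. Mt1, a metal-binding metallothionein, was 808 (735 to 887) and 2827 (2603 to 3065) CPM in the same groups. Aldh1a2 differed less, with 236 (197 to 279.7) at 2 UMIs and 299 (229 to 383) at 16 or more, and Irx3, a homeobox gene of pregranulosa cells, stayed between 236 and 303. Inha, the inhibin alpha subunit, had no such order, with its lowest level of 112 CPM at 5 to 7 UMIs. The last group holds only 20 cells, the fewest of the 5.

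**Figure D2:**
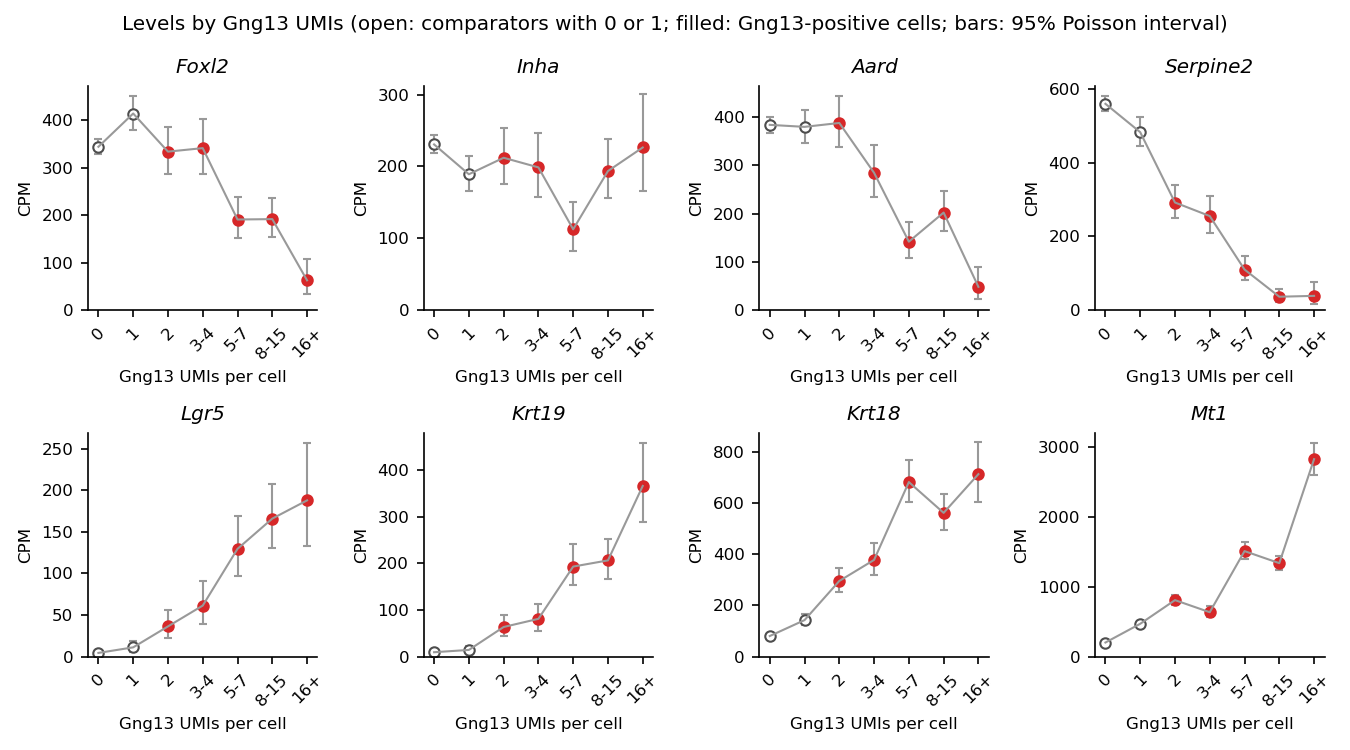
Level in CPM (y axis, linear) of 8 genes in cells grouped by Gng13 UMIs (x axis), with 95% Poisson intervals. Open points are comparators with 0 or 1 UMI and filled points are Gng13-positive cells, in which Foxl2 goes from 333 to 62.6 CPM and Krt19 from 63.4 to 366 CPM.

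Foxl2 and Krt19 divided the cells further. Of the 230, 132 had Foxl2 without Krt19, 33 had both, 30 had neither and 35 had Krt19 without Foxl2. The last group, chosen for its Krt19, held 3159.7 (2967 to 3362) CPM of Lgals7, a galectin of epithelia, and 3242 (3047 to 3446) of Mt1. In surface epithelium these were 3593 and 3917 CPM, and in the 132 cells with Foxl2 alone Lgals7 was 909 and Mt1 798. Among the 132 cells with Foxl2 alone, Lgr5 was 72.5 (57.8 to 89.9) CPM and Aldh1a2 279.6 (249.8 to 312), both still above the Gng13-free cells. Since a gene missing from a cell at this depth may not have been captured, these 4 groups are groups of UMI counts and not cell types. In 67 cells Lgr5 and Foxl2 were seen together, in 37 Lgr5 alone, in 98 Foxl2 alone and in 28 neither.

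The comparison across the transcriptome used genes with a mean of at least 20 CPM in the 2 classes, without the 10 genes of the selection, and called a gene past the fold when CPM with 5 added differed at least 2-fold. Because the same 230 cells stand in every comparison, the results are not independent of each other. A gene could also pass the filter on low levels through either class alone. Counts of higher and of lower genes were thus in part set by this filter. Against growing follicle granulosa, 320 genes were higher (5.36% of 5972) and 291 lower (4.87%). Against Gng13-free supporting cells, 140 were higher (2.31% of 6058) and 172 lower (2.84%). Against surface epithelium, 273 were higher (4.56% of 5982) and 284 lower (4.75%), and against all other somatic cells 234 were higher (3.86% of 6067) and 337 lower (5.55%). The fewest genes thus stood apart from the Gng13-free supporting cells. The median log2 ratio over all genes compared was -0.02, -0.02, 0.06 and 0.04 in the 4 comparisons, in that order.

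Genes of the growing follicle were low in the Gng13-positive cells. Of 21 such genes, 17 were compared, 0 being higher and 13 lower, with a median log2 ratio of -1.88 against growing follicle granulosa. Hsd3b1, a steroid dehydrogenase, was 38.1 (30.1 to 47.6) CPM in Gng13-positive cells and 679 (656 to 702) in growing follicle granulosa. Inha was 187 (168 to 206) and 1312 (1281 to 1344) CPM. Both were therefore several-fold lower. The selection had removed cells with Amh, Nr5a2 or Hsd17b1, and a gene could pass the filter on low levels through growing follicle granulosa alone, so this direction was largely set by the choice of cells and genes. Against Gng13-free cells, chosen without those genes as well, 16 were compared, 0 being higher and 7 lower, with a median log2 ratio of -0.79, and Inha was 0.809 times as high (0.720 to 0.908). Against surface epithelium, 12 were compared, 10 being higher and 0 lower, with a median log2 ratio of 1.60. Other genes lowest against growing follicle granulosa were Slc18a2, Arhgap31, Serpine2, Metrnl, Fam13a, Ank2, Serpinf1, Pclaf, Rgs2 and Plagl1. Their ratios lay between 0.0331 for Slc18a2 and 0.206 for Rgs2. Of 22 steroid and nuclear receptor genes, 13 were compared, 1 being higher and 5 lower, with a median log2 ratio of -0.24, and Esr1, an oestrogen receptor, was the 1 higher gene, at 3.52 (2.65 to 4.70) times.

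Cell division genes were low in the same way, and here too a gene could pass the filter on low levels through the comparator alone. The counts of lower genes were in part set by this filter. Of 39 in the list, 28 were compared, 1 being higher and 22 lower, with a median log2 ratio of -1.39 against growing follicle granulosa, 28 were compared, 0 being higher and 21 lower, with a median log2 ratio of -1.52 against surface epithelium, and 19 were compared, 1 being higher and 5 lower, with a median log2 ratio of -0.58 against Gng13-free cells. Top2a, which untangles DNA in dividing cells, stood at 22.5 CPM in Gng13-positive cells, 106 (97.4 to 115) in Gng13-free cells, 158 (147 to 169) in growing follicle granulosa and 193 (179 to 209) in surface epithelium. Mki67, a marker of cycling cells, was 15.6 (10.7 to 22.1) CPM in Gng13-positive cells and 54.5 (48.4 to 61.0) in Gng13-free cells. The gene on the list with the opposite direction was Ccnd1, the G1 cyclin, at 142 (126 to 159) CPM against 43.3 (38.0 to 49.2) in Gng13-free cells and 17.9 (14.4 to 22.0) in growing follicle granulosa. Of 16 cell cycle inhibitors, 7 were compared, 1 being higher and 1 lower, with a median log2 ratio of -0.03 against growing follicle granulosa and 8 were compared, 0 being higher and 0 lower, with a median log2 ratio of -0.39 against Gng13-free cells. Cdkn1b, the inhibitor p27 that restrains primordial follicles, was 239.9 CPM, 178 in Gng13-free cells and 131 in growing follicle granulosa, below the 2-fold mark in both comparisons.

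Krt7, Krt8, Krt18, Krt19 and Epcam were higher than in Gng13-free cells and growing follicle granulosa and lower than in surface epithelium. Of 33 junction and keratin genes, 15 were compared, 6 being higher and 1 lower, with a median log2 ratio of 0.85 against growing follicle granulosa and 15 were compared, 6 being higher and 1 lower, with a median log2 ratio of 0.32 against Gng13-free cells. Against surface epithelium, 14 were compared, 0 being higher and 5 lower, with a median log2 ratio of -0.83. The 6 higher genes were the same in both comparisons with supporting cells, namely Epcam, Krt7, Krt8, Krt18, Krt19 and the tight-junction protein Cgn. The lower gene was Gja1, the gap junction protein of growing follicles. A gene could pass the filter on low levels through the Gng13-positive cells alone, so the counts of higher genes were in part set by it. Krt18, a keratin of simple epithelia, was 493 (463 to 524) CPM in Gng13-positive cells, 80.2 (72.9 to 88.1) in Gng13-free cells and 22.9 (18.9 to 27.5) in growing follicle granulosa. Epcam, an adhesion molecule, was 153 (136 to 171), 13.9 (10.9 to 17.4) and 4.38 (2.75 to 6.63) CPM. In surface epithelium both were higher still, at 1218 and 418 CPM. In the 160 Gng13-positive cells with no Krt19 and no Upk3b UMI, a group drawn after the values were seen, Krt18 was 396 and Epcam 80.7 CPM. Lgr5 was 74.8 CPM. All 3 levels were above those of the Gng13-free cells, from which cells with Krt19 or Upk3b were not removed. Since a missing gene may not have been captured, this split cannot show what part the Krt19-positive cells have in the levels.

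**Figure D3:**
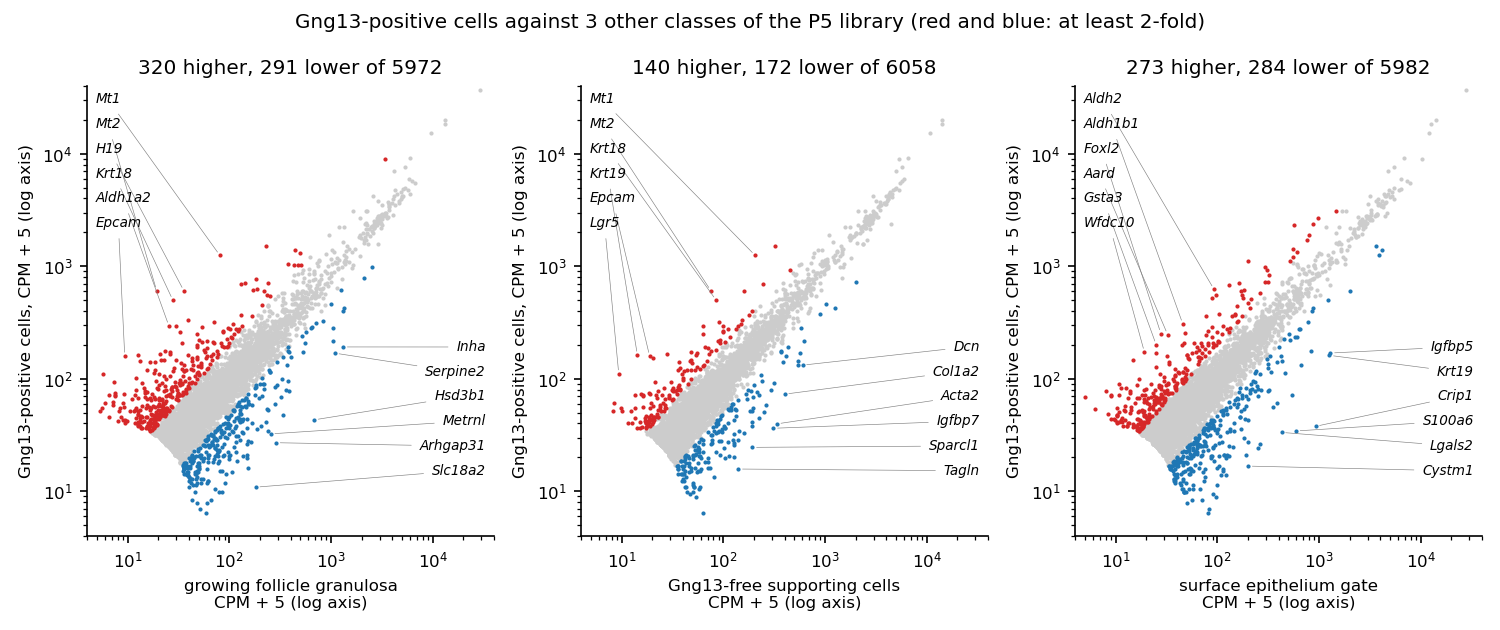
Level in Gng13-positive cells (y axis) against that in growing follicle granulosa, Gng13-free supporting cells and surface epithelium (x axis), both as CPM with 5 added on log axes, 1 point per gene compared. Red and blue points are at least 2-fold higher and lower, with 320, 140 and 273 red points from left to right, and the 6 genes of highest and of lowest ratio under the ranking rule are named.

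Metallothioneins were among the genes of highest ratio in both comparisons with supporting cells. Mt1 was 1241 (1193 to 1289.8) CPM in Gng13-positive cells, 201 (189 to 213) in Gng13-free cells and 75.9 (68.4 to 83.9) in growing follicle granulosa. Mt2 was 598 (565 to 632), 70.7 (63.8 to 78.1) and 14.3 (11.2 to 18.1) CPM. The ratio to Gng13-free cells was 6.17 (5.75 to 6.63) for Mt1 and 8.45 (7.53 to 9.50) for Mt2, and both were highest in surface epithelium, at 3917 and 2005 CPM. Mt3 differed from its relatives in being 77.7 CPM in Gng13-positive cells and 7.73 in surface epithelium. Of 15 cystatins and metallothioneins, 8 were compared, 5 being higher and 0 lower, with a median log2 ratio of 1.75 against Gng13-free cells and 8 were compared, 6 being higher and 0 lower, with a median log2 ratio of 2.24 against growing follicle granulosa. Cst12, a protease inhibitor of the cystatin family, was 690.4 (655 to 727) CPM against 243 (230.3 to 257) in Gng13-free cells, and Cst8 67.4 (56.6 to 79.7) against 10.6 (8.05 to 13.7).

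Mt1 and Mt2 lie side by side on chromosome 8 and answer to metal through the metal response element, so the 250 bases before their starts are shown beside those of Gng13, all on the plus strand of GRCm38.p6 from RefSeq. Capitals mark each match to the element's core, written as TGCACNC or TGCGCNC, searched on both strands. The windows are chr8:94172368-94172617 for Mt2, chr8:94178839-94179088 for Mt1 and chr17:25716922-25717171 for the upstream of 2 Gng13 starts.
Mt2: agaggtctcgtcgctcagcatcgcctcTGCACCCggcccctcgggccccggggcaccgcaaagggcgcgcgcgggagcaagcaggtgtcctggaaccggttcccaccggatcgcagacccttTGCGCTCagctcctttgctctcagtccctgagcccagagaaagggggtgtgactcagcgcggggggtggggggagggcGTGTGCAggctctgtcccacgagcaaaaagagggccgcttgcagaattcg
Mt1: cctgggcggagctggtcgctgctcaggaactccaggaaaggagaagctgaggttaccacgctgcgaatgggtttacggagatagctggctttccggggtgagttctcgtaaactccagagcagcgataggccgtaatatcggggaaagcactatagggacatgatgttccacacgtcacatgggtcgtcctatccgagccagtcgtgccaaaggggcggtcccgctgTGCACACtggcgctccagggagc
Gng13: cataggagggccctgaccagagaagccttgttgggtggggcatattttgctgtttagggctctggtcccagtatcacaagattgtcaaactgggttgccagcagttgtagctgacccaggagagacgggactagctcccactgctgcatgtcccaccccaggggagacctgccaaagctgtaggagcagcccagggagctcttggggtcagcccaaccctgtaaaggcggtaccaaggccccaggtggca
The Mt2 window held 3 matches, a number reached by 1.26% of all 32851 windows of this length, and the Mt1 window held 1, as at least 1 match stood in 21.4% of all windows. The Gng13 window held none. A match is a run of letters and not a measured site. The counts hold only for the 250 bases before each annotated start, and sequence past these starts was not searched.

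Among transcription factors of the granulosa lineage, Irx3 and Nr0b1 were higher than in both kinds of supporting cell. Of 24, 15 were compared, 2 being higher and 1 lower, with a median log2 ratio of 0.19 against Gng13-free cells and 15 were compared, 3 being higher and 0 lower, with a median log2 ratio of 0.29 against growing follicle granulosa. Irx3 was 256 (235 to 279) CPM in Gng13-positive cells, 95.2 (87.2 to 104) in Gng13-free cells and 27.5 (23.1 to 32.5) in growing follicle granulosa. Lhx9, a homeobox factor of the early gonad and its surface, was 90.9 (78.3 to 105), 47.9 (42.3 to 54.0) and 14.1 CPM, and 218 (202 to 235) in surface epithelium. Nr0b1, an orphan receptor that represses steroidogenic genes, was 46.4 (37.6 to 56.7), 7.31 (5.22 to 9.95) and 6.57 (4.52 to 9.23) CPM. These were the 3 factors above the fold against growing follicle granulosa, and Lhx9 did not reach it against Gng13-free cells. Runx1, Gata4 and Emx2 stayed within 2-fold in each comparison, at 151, 96.7 and 90.4 CPM.

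In the Wnt and R-spondin pathway, the ligand Rspo1 and its receptor Lgr5 were the higher genes against both kinds of supporting cells. Of 43 genes, 12 were compared, 3 being higher and 0 lower, with a median log2 ratio of 0.42 against growing follicle granulosa and 12 were compared, 2 being higher and 1 lower, with a median log2 ratio of 0.13 against Gng13-free cells. Rspo1, the secreted ligand, was 157 (140.2 to 175) CPM in Gng13-positive cells, 49.2 (43.5 to 55.4) in Gng13-free cells and 34.3 (29.3 to 39.8) in growing follicle granulosa. Axin2, a target and inhibitor of the pathway, was 86.5 (74.2 to 100.2), 43.3 (38.0 to 49.2) and 8.96 CPM. Both levels were higher again in surface epithelium, at 217 and 115 CPM, within 2-fold, and Axin2 stayed under the fold against Gng13-free cells. Wnt4, the ovarian Wnt ligand, was 76.2 CPM against 63.2 in Gng13-free cells, a ratio of 1.21 (0.992 to 1.46) whose interval includes 1. Sfrp1, a secreted Wnt antagonist, was the lower gene against Gng13-free cells, at 23.5 (17.3 to 31.1) and 119 (110.0 to 128) CPM.

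Of 20 retinoic acid pathway genes, 6 were compared, 1 being higher and 1 lower, with a median log2 ratio of 0.62 against growing follicle granulosa, the higher being Aldh1a2 and the lower Stra6, a receptor for retinol uptake. Beside Aldh1a2, the related enzyme Aldh1a1 was 832 (793 to 872) CPM, 496 (478 to 515) in Gng13-free cells, 427 (409 to 445) in growing follicle granulosa and 319 (300.1 to 339) in surface epithelium. Gng13-positive cells had the highest Aldh1a1 of these classes. Of 39 BMP and activin genes, 23 were compared, 0 being higher and 5 lower, with a median log2 ratio of -0.40 against Gng13-free cells, the lower ones being Bmp4, Id2, Id3, Tgfb2 and Bambi. Of 20 Notch genes, 7 were compared, 2 being higher and 0 lower, with a median log2 ratio of 0.25 against growing follicle granulosa and 9 were compared, 0 being higher and 0 lower, with a median log2 ratio of 0.04 against Gng13-free cells. Hes1, a Notch target, was 1012 CPM, 1051 in Gng13-free cells and 465 in growing follicle granulosa. Of 32 G protein subunits, with Gng13 itself left out, 15 were compared, 0 being higher and 2 lower, with a median log2 ratio of -0.14 against Gng13-free cells, the lower being Gng11 and Gnb4.

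H19, a maternally expressed imprinted RNA, was 596 (563 to 631) CPM in Gng13-positive cells, 626 (599 to 654) in surface epithelium, 154 (143 to 164) in Gng13-free cells and 30.9 (26.2 to 36.1) in growing follicle granulosa. The first 2 intervals overlap. Of 19 imprinted genes, 14 were compared, 4 being higher and 2 lower, with a median log2 ratio of 0.32 against growing follicle granulosa and 14 were compared, 2 being higher and 3 lower, with a median log2 ratio of -0.16 against Gng13-free cells. Mest, an imprinted gene expressed from the paternal copy, was 161, 67.8 and 21.3 CPM in Gng13-positive, Gng13-free and growing follicle cells, while Plagl1, an imprinted zinc finger gene, was 16.1, 86.8 and 143. The H19 gene contains Mir675, so the 2 cannot be told apart in these counts.

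Of 35 basement membrane and glypican genes, 25 were compared, 6 being higher and 3 lower, with a median log2 ratio of 0.42 against growing follicle granulosa and 25 were compared, 2 being higher and 3 lower, with a median log2 ratio of -0.25 against Gng13-free cells. Egfl6, a secreted matrix protein, was 66.0 (55.3 to 78.1) CPM against 11.1 (8.53 to 14.3) in Gng13-free cells. Of 25 genes of oocyte to granulosa signalling, 16 were compared, 0 being higher and 2 lower, with a median log2 ratio of -0.28 against Gng13-free cells, both lower genes being binding proteins of insulin-like growth factors, Igfbp4 and Igfbp7. Of 25 dissociation and stress genes, 25 were compared, 0 being higher and 3 lower, with a median log2 ratio of -0.47 against Gng13-free cells and 25 were compared, 4 being higher and 4 lower, with a median log2 ratio of -0.15 against growing follicle granulosa. Hspa1a, a heat shock gene, was 454 CPM in Gng13-positive cells, 1023 in Gng13-free cells and 995 in growing follicle granulosa.

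**Figure D4:**
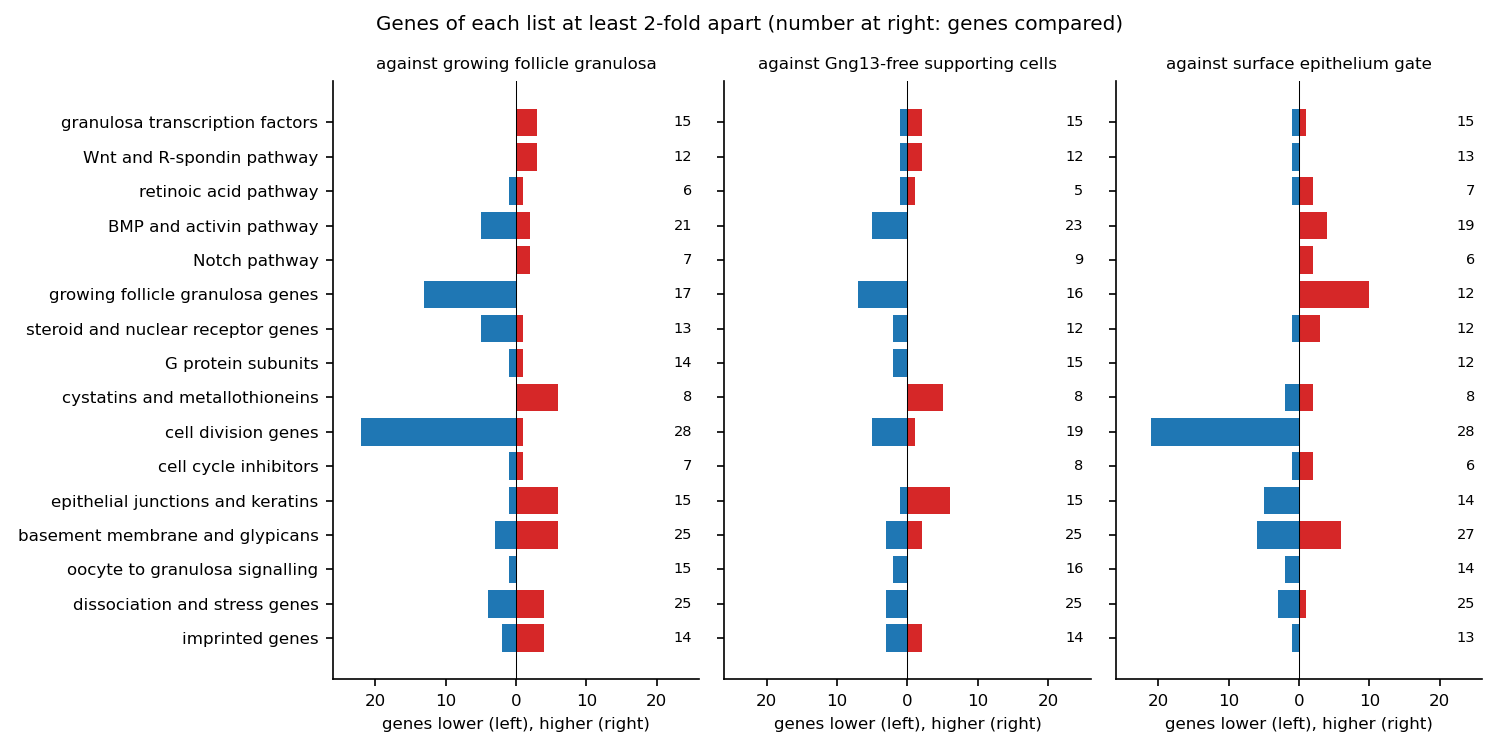
Number of genes of each list at least 2-fold lower (blue, left) or higher (red, right) in Gng13-positive cells than in 3 other classes (x axis), with the number of genes compared at the right of each row. Cell division genes reach 22 lower of 28 against growing follicle granulosa. Growing follicle granulosa genes go from 13 lower of 17 there to 10 higher of 12 against surface epithelium. A gene could pass the filter on low levels through either class alone, so the counts of lower and of higher genes were in part set by it. For growing follicle granulosa genes against growing follicle granulosa, the direction was largely set by the choice of cells and genes.

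Other genes that led the comparisons have less defined roles here. Tnni1, a troponin subunit, was 288 (265 to 312) CPM against 57.9 (51.7 to 64.7) in Gng13-free cells and 53.0 in all other somatic cells. Rhox8, a homeobox gene of the reproductive cluster on the X chromosome, was 147 (131 to 165) against 15.5 (12.4 to 19.2) and 18.8 CPM. Crygb, a crystallin, was 327 (303 to 353) against 148 (138 to 158) and 79.5 CPM. Each was above both comparators by more than 2-fold. Against all other somatic cells, Cst12, Prcd, Aldh1b1, Cox7a1, Cst9, Smpx, Gstm6, Pcp4 and Gsta3 completed the 12 highest, and the lowest were neutrophil, mural and stromal genes led by S100a8, at 109.9 against 2773 CPM.

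Surface epithelium was compared because its Gng13, Lgr5 and Aldh1a2 levels were as high or higher, a comparison chosen after the values were seen. Foxl2 led the higher genes. Aldh2, an aldehyde dehydrogenase, was 617 (584 to 652) CPM in Gng13-positive cells and 87.9 (77.9 to 98.7) in surface epithelium. Aard was 241 (220.1 to 263) and 27.5 (22.1 to 33.9) CPM, and Gatm, which makes the precursor of creatine, 1113 (1067 to 1159) and 196 (181 to 211). In Gng13-free cells Aard was 384, Gatm 929.9 and Aldh2 378, so all 3 were above the surface epithelium in Gng13-positive and in Gng13-free cells. On the other side, Crip1 was 32.7 (25.4 to 41.6) CPM against 919 (886 to 953), S100a6, a calcium-binding protein, 29.3 (22.4 to 37.7) against 589 (563 to 616), and Krt19 156 (139.7 to 174) against 1262 (1224 to 1301). Of 15 surface epithelium markers, 10 were compared, 1 being higher and 8 lower, with a median log2 ratio of -2.76, the higher one being Aldh1a1. The surface group was drawn on Upk3b, which the selection held to at most 1 UMI in each Gng13-positive cell. A marker could also pass the filter on low levels through the surface group alone, and only 6 were compared against Gng13-free cells. The lower direction of these markers was thus largely set by the choice of cells and genes.

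Markers of other cell types were read over their whole lists. Surface epithelium markers were detected for 13 of 15 genes in Gng13-positive cells, with Lrrn4 and Cldn15 at 0, and summed to 2806 CPM, 1514 of it Lgals7, against 908 in Gng13-free cells, 725 in growing follicle granulosa and 6537 in surface epithelium. Only 6 of them were abundant enough to compare with Gng13-free cells, 4 being higher (Krt19, Krt7, Lgals7 and Rspo1), with a median log2 ratio of 1.92 against -0.02 over all genes. Stroma markers, all 20 detected and led by Mgp at 702 CPM, summed to 1825 CPM against 4104 in Gng13-free cells, 1110.3 in growing follicle granulosa and 6272 in other somatic cells. The Gng13-free group thus carried more stromal transcripts, 11 of the 15 stroma markers compared being lower in Gng13-positive cells, among them Col1a1 at 256 CPM against 53.7 and Dcn at 597 against 127. Mural cell markers were detected for 9 of 12 genes, with Notch3, Mcam and Cnn1 at 0, and summed to 58.6 CPM against 568 in Gng13-free cells, most of both Acta2. The lowest ranks against Gng13-free cells were likewise led by Acta2, Igfbp7, Sparcl1 and Tagln, genes of contractile cells and matrix. The part of these transcripts in the genes lower than in Gng13-free cells was not tested.

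Germ cell and oocyte markers summed to 167 CPM, with 18 of 20 detected, Bmp15 and Oosp1 at 0 and Rec8, a meiotic cohesin, highest at 61.1. Their sum was 96.5 CPM in Gng13-free cells, 70.5 in growing follicle granulosa and 264 in surface epithelium. Only Ooep and Rec8 were abundant enough to compare with Gng13-free cells, and both were past the fold and higher. Rete and tubule markers summed to 1101 CPM, 9 of 14 detected, with Pax2, Cdh6, Cdh16 and Wnt7b among those at 0 and Clu highest at 321. Steroidogenic markers summed to 222 CPM, 8 of 9 detected, with Insl3 at 0 and Fdx1 highest at 71.8. Endothelial markers summed to 142 CPM, 11 of 13 detected, with Tek and Tie1 at 0 and 103 from Ramp2. Immune markers summed to 216 CPM against 175228 in immune cells, 13 of 15 detected, with Ptprc and Cx3cr1 at 0 and S100a8 highest at 109.9. Erythroid markers summed to 3948 CPM, 2377 of it Hbb-bs, with Hbb-y, Hba-x and Hbb-bh1 at 0. Their sum was 14972 CPM in other somatic cells, 8601 in Gng13-free cells, 4276 in growing follicle granulosa and 1525 in surface epithelium. Markers of growing follicle granulosa summed to 2079.5 CPM against 3974, 9 of 10 detected, with Fshr at 0 and 1420.4 from Kctd14. Most genes of each list were thus detected at some level. The part of these transcripts in the results was not tested.

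Over the 8 classes with at least 50 cells, the genes whose log2 levels (CPM with 5 added) were most like Gng13 were Ddx60, an interferon-induced helicase (Pearson r 0.925), Lgr5 (0.924), the cholesterol transporter Npc1 (0.920), the ferritin receptor Ncoa4 (0.904) and Epcam (0.900), of 5957 genes. The classes share 1 library and were partly drawn on Gng13, so these values describe a pattern only. Ddx60 was 39.6 (31.4 to 49.2) CPM in Gng13-positive cells, 8.59 (6.31 to 11.4) in Gng13-free cells and 69.9 (61.1 to 79.7) in surface epithelium.

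The same conditions were applied unchanged to the other ages. They took 21 cells at E11.5, too few to describe, and then 515, 2798, 1401, 768, 464 and 230 cells from E12.5 to P5, or 13.1, 38.6, 19.1, 25.6, 9.72 and 4.38% of somatic cells. Of these 6 ages, the share was highest at E14.5 and lowest at P5, while at E11.5 it was 0.264%. Median depth in these cells was 13112, 6510.5, 13892, 7558, 8587.5 and 8027.5 UMIs, and a cell with more UMIs passes a fixed UMI condition more easily, an influence that was not tested. Foxl2 was 51.2, 36.9, 141, 71.1, 190.1 and 246 CPM from E12.5 to P5. Aldh1a2 was 37.9, 58.6, 94.7, 67.7, 103 and 288 CPM. Both had their highest level at P5. Lgr5 was 35.9, 89.5, 232, 165, 114 and 105 CPM, with its highest level at E16.5.

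Foxl2 was below the Gng13-free supporting cells at each of these 6 ages, at ratios from 0.404 (0.361 to 0.453) at E14.5 to 0.769 (0.666 to 0.887) at E12.5. Lgr5 was above them at each age, from 2.14 (1.70 to 2.71) at E12.5 to 24.0 (15.7 to 38.2) at P5. Krt18 was 125 CPM at E12.5 and 493 at P5 in Gng13-positive cells, and 155 and 80.2 in Gng13-free cells. Cst12 was 24.6 CPM at E12.5 and 690.4 at P5, and Crygb 2.49 and 327. Wnt4 was 452 CPM at E16.5 and 76.2 at P5, Fst, the activin inhibitor follistatin, 861 at E14.5 and 205 at P5, and Cdkn1c, an imprinted cell cycle inhibitor, 3247 and 74.3 at E12.5 and P5. The gate thus took cells of different make-up at each age, and the libraries also differed in depth and, unless they shared a trypsin time as P1 and P5 did, in trypsin time. With 1 library per age, neither library nor depth can be told apart from age.

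**Figure D5:**
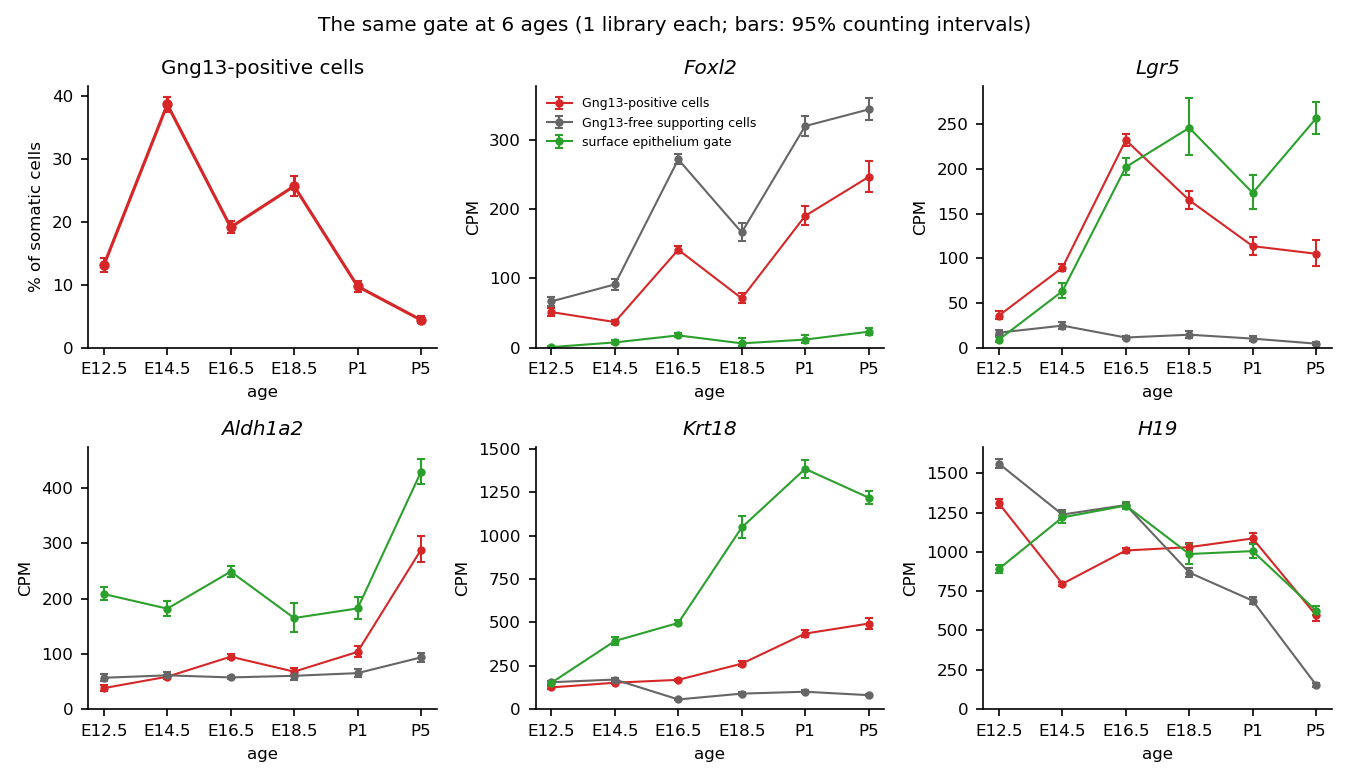
Share of somatic cells that met the conditions (first panel, %) and levels in CPM of 5 genes (y axes, linear) at 6 ages (x axis), 1 library each, with 95% counting intervals. Gng13-positive cells are red, Gng13-free supporting cells grey and surface epithelium green, and Aldh1a2 in Gng13-positive cells goes from 37.9 CPM at E12.5 to 288 at P5.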

How the data were processed

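Single-cell RNA libraries (droplet 3′ chemistry, 1 per age, 7 in all) were deposited by the authors as UMI counts per gene and called cell, made with Cell Ranger 3.1.0 on the mm10 reference. These counts were not normalized. Barcodes and genes were deposited in companion files (unit other). Depth was 48790024 UMIs at P5 over 6519 cells and 31053 genes. The submitters' notes also name Seurat, whose output was not used here. Doublets were kept; an alternative removed likely ones. UMIs were summed per class and given as CPM with 95% exact Poisson intervals; shares have exact binomial intervals, and ratios an exact interval conditional on the summed UMIs. All intervals cover counting error only. For shares of cells, each cell was thinned to 2000 UMIs without replacement. No test was run, since each age has 1 library. Named genes were the 12 highest and 12 lowest per comparison by ratio with 20 CPM added, without genes of the selection, mitochondrial, ribosomal protein, haemoglobin and unnamed genes, plus any gene of 28 lists. Positions came from GENCODE on GRCm38, where all 568 genes looked up were found by identifier. The members and lists were chosen with earlier results of these data known. Python 3.11.15, numpy 2.4.6, scipy 1.17.1, pandas 2.3.3 and matplotlib 3.10.9 were used, and the scripts were tested on simulated data. Results for some genes of the lists are not reported here.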

Additional observations from a re-analysis of the deposited data

Results flagged for a closer look

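Of 13 genes followed at P5 and 5 earlier ages, each with at least 50 Gng13-positive cells, 5 stood on opposite sides of the Gng13-free supporting cells at P5 and at another age, by the 95% counting interval of the ratio of levels. The 13 were chosen from a longer set of genes followed over the ages, and all 13 differed from the Gng13-free cells at P5. The count of 5 is therefore not a share over all genes followed. The difference between ages was not tested, since each age is 1 library. Aldh1a2 was at 0.669 (0.569 to 0.787) times the Gng13-free cells at E12.5 and 3.08 (2.73 to 3.48) at P5. Epcam was at 0.170 (0.131 to 0.218) at E12.5, and at P5 its level was 153 (136 to 171) CPM against 13.9 (10.9 to 17.4) in Gng13-free cells. Krt18 was at 0.807 (0.736 to 0.885) (E12.5) and 0.892 (0.830 to 0.960) (E14.5), against 6.14 (5.48 to 6.88) at P5. H19 was at 0.838 (0.814 to 0.862), 0.644 (0.626 to 0.662) and 0.777 (0.763 to 0.792) at the first 3 of the 6 ages described, from E12.5 on, and 3.88 (3.55 to 4.24) at P5. Inha went the other way, at 1.45 (1.25 to 1.67), 1.12 (1.02 to 1.22), 1.19 (1.05 to 1.36) and 1.56 (1.43 to 1.71) at E12.5, E16.5, E18.5 and P1, and 0.809 (0.720 to 0.908) at P5.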

How the results depend on the processing

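No direction reversed: of the alternative ratios of Foxl2, Lgr5 and Aldh1a2 to supporting cells, 66 stayed inside the interval of the ratio as reported and 19 left it on the same side of 1. Counts followed the low-level rules. With 20 CPM added they were 206 higher and 184 lower against growing follicle granulosa, 72 higher and 105 lower against Gng13-free cells, 159 higher and 176 lower against surface epithelium and 125 higher against other somatic cells. With a mean of at least 50 CPM they were 146 higher and 145 lower, 68 higher and 85 lower, 131 higher and 141 lower and 132 higher and 148 lower. With no filter beyond 1 UMI they were 645 higher and 523 lower, 256 higher and 447 lower and 498 higher and 547 lower, and 825 lower against other somatic cells. After thinning to 2000 UMIs, 474 were higher against surface epithelium. A second random draw, added after seeing the data, gave 442 there, 355 instead of 347 higher against other somatic cells, and 179 instead of 200 against Gng13-free cells. With at least 1 Gng13 UMI 74 were higher against Gng13-free cells. The share of somatic cells was 7.33% with at least 1 Gng13 UMI, 3.12% with at least 3, 3.83% with cells of at least 200 genes and 3.55% with at most 10% mitochondrial UMIs. It was 3.05% without cells holding Krt19 or Upk3b and 3.14% for cells with Foxl2, both chosen after seeing the data. With at most 10% mitochondrial UMIs the counts were 321 higher and 278 lower against growing follicle granulosa and 146 higher and 180 lower against Gng13-free cells. With at least 1 Wnt6 UMI required in both classes, 109 were higher and 131 lower against Gng13-free cells, and the Aldh1a2 ratio was 2.64. Between E14.5 and P5, Foxl2 differed 6.68-fold in level and 4.26-fold in thinned shares of cells (5.63 in the second draw), and Aldh1a2 4.92 and 4.08-fold (4.08 in the second draw). Of the other counts, shares and levels, 109 alternatives stayed within 1.5 times or within counting error, those without likely doublets included. The filters change how many genes are compared; other causes were not tested. No paired analysis was possible because each age has 1 library.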

Other observations

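Between the Gng13-positive cells and the growing follicle granulosa lay 39 cells that met every other condition but held both at least 2 UMIs of Gng13 and at least 1 of Amh, Nr5a2 and Hsd17b1. The 20 of them with exactly 1 such UMI held 226 CPM of Inha, 44.2 of Lgr5 and 147 of Krt19. The 19 with more held 861 CPM of Inha, 42.7 of Lgr5 and 3.56 of Krt19, at a median of 13820 UMIs. These cells are among the other somatic cells and in no other group compared.

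The 155 cells with 1 Gng13 UMI, also counted only among the other somatic cells, held 414 (379 to 451) CPM of Foxl2, 164 (142 to 188) of Aldh1a2, 11.1 (6.05 to 18.6) of Lgr5 and 14.2 (8.44 to 22.5) of Krt19, at a median of 7806 UMIs per cell. Their Foxl2 level was the highest of the classes compared at P5, and their Lgr5 level lay between those of Gng13-free and Gng13-positive cells.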
